A study of Homo sapiens with 6 samples.

Results

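The genes described here are the 5 subunits of the transcription factor NF-κB (NFKB1, NFKB2, REL, RELA and RELB) and 5 inhibitors and adaptors whose transcription NF-κB itself induces (NFKBIA, NFKBIE, TNFAIP3, TRAF1 and BCL3). They were chosen by name, with earlier results of these data known, and matched by Ensembl identifier. All 10 were among the 20036 genes of the table. Expression was measured by poly(A) RNA-seq in MV411, a cell line grown from a human monocytic leukaemia, in which KMT2A is fused and FLT3 is internally duplicated. The cells, of WT genotype per the labels, were kept for 48 h with corilagin, an ellagitannin found in plants, or with DMSO, and 3 libraries were made of each kind. The sources used here do not give the dose. Nothing in the labels tells if replicates were separate cultures, and the p-values then cover only the spread among these libraries, which may be technical. In this bulk RNA, fewer expressing cells and less RNA per cell cannot be told apart.

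NF-κB proteins bind DNA as pairs of subunits. RELA, RELB and REL carry the domains that activate transcription, whereas NFKB1 and NFKB2 encode the precursors p105 and p100, which are processed to the DNA-binding subunits p50 and p52. In resting cells the dimers are held in the cytoplasm by IκB proteins such as NFKBIA and NFKBIE, and IκB kinase releases them after signals from cytokine or Toll-like receptors. A second, slower route through NFKB2 and RELB answers to a smaller set of receptors. Because several inhibitors are themselves induced by NF-κB, the pathway limits its own activity in monocytes and other immune cells.

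Because NF-κB is known to act on its own genes, the member promoters that hold its consensus letters are printed here. RefSeq windows (build GRCh38.p14, 250 bases before to 50 bases after the gene start) were found for 8 of the 10 genes, all except RELB and NFKBIE. Each window is written 5′ to 3′ on the gene's strand, and capitals mark matches to the 10-base NF-κB consensus on either strand. The windows lie at chr4:102501109-102501408 (plus strand) for NFKB1, chr2:60881324-60881623 (plus) for REL, chr14:35404700-35404999 (minus) for NFKBIA, chr6:137867009-137867308 (plus) for TNFAIP3 and chr19:44748458-44748757 (plus) for BCL3.
NFKB1: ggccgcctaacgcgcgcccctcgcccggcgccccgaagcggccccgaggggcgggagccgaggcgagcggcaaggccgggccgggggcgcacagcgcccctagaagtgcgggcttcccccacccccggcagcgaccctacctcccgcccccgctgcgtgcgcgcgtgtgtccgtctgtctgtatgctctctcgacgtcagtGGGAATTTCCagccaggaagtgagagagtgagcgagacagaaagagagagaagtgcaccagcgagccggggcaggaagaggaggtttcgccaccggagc
REL: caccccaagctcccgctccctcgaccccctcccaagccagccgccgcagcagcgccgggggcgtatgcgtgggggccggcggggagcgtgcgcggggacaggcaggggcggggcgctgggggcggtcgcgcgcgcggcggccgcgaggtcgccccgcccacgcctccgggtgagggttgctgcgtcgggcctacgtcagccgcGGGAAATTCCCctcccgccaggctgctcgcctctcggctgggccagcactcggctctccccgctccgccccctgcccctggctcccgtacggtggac
NFKBIA: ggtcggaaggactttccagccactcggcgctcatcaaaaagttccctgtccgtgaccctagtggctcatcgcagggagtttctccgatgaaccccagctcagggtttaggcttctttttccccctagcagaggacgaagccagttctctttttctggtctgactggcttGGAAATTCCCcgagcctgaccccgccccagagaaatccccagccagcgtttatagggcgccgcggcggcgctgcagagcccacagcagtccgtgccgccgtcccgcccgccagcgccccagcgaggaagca
TNFAIP3: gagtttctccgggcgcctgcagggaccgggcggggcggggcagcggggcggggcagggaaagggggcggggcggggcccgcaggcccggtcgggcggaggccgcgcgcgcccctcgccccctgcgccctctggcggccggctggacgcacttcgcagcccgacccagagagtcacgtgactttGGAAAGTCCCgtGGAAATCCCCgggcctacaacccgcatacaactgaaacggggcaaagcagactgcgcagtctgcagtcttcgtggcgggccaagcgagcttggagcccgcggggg
BCL3: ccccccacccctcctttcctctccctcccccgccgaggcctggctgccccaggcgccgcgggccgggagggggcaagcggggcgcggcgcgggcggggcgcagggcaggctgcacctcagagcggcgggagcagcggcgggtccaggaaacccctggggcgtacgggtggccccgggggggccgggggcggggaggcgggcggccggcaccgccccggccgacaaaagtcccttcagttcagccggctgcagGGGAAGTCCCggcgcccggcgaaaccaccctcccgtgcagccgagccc

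The consensus was found in 5 of the 8 member windows and in 10.8% of 27305 RefSeq promoters of the same length. The windows with a match had a GC content of 62.0% to 80.0%, and those of NFKB2, RELA and TRAF1 51.3% to 71.3%. The median over all promoters was 58.3%, and the share among promoters of like GC content was not counted. NFKB1 and NFKBIA carried the same 10 letters, GGGAATTTCC, on opposite strands, starting 49 bases before the NFKB1 start and spanning 81 to 72 bases before the NFKBIA start. In REL, matches on both strands overlapped in a single run of 11 bases, 47 to 37 bases before the start. TNFAIP3 held a pair of matches close together, GGGACTTTCC and GGGGATTTCC on the minus strand of the gene. The BCL3 match is read on both strands at the same bases and lies just inside the gene, from 2 bases after the RefSeq start. Gene coordinates given with the members below are those of GENCODE 29, in which BCL3 starts upstream of its whole RefSeq window. REL and TNFAIP3 also start earlier there, at 60881521 and 137867188, so their matches lie inside the GENCODE 29 genes. A related pattern, GGG, any 3 bases and then TTCC, which overlaps the consensus matches, was in the first 4 of these windows and in 6.47% of all promoters. No consensus match was in the windows of NFKB2, RELA and TRAF1. The RELA window, chr11:65663808-65664107 (minus), lies wholly upstream of the GENCODE 29 gene, whose 5′ end is at 65663094. A match is a description of the letters only.

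Libraries were of similar depth, 17776956 to 21640689 fragments as implied by the deposited values. FPKM, fragments scaled by gene length and library total, is the unit throughout, and tests used limma on log2(FPKM + 1) across the 9868 genes whose mean reached 1 FPKM, with Benjamini-Hochberg adjustment over all of them and a threshold of 0.05. In the text, rose and fell are used for genes past that threshold, and all 10 members passed the filter. Markers were those of the labelled cell type: 10 of 11 myeloid and leukaemia markers averaged at least 1 FPKM over the 6 libraries, all except CD14 (0.139 FPKM after corilagin and 0.253 FPKM in DMSO). Their sum was 627 to 633 FPKM after corilagin and 618 to 638 FPKM in DMSO, but single markers differed in opposite directions. FLT3 averaged 311 FPKM after corilagin and 217 FPKM in DMSO and ITGAM 2.84 FPKM after corilagin and 1.39 FPKM in DMSO, while LYZ averaged 42.8 FPKM after corilagin and 68.5 FPKM in DMSO, SPI1 111 FPKM after corilagin and 145 FPKM in DMSO, CD4 105 FPKM after corilagin and 131 FPKM in DMSO, and MPO 0.471 FPKM after corilagin and 1.58 FPKM in DMSO. The part of these markers in the results below was not tested. The epithelial genes EPCAM, CDH1 and KRT19, the B-cell gene MS4A1 and the fibroblast genes COL1A2 and COL3A1 were at 0 in all libraries, and summed T-cell markers did not exceed 0.101 FPKM. Summed endothelial markers were 0.274 to 0.489 FPKM after corilagin and 0.0978 to 0.106 FPKM in DMSO. The B-cell gene CD79A averaged 1.98 FPKM after corilagin and 2.04 FPKM in DMSO. DMSO replicate 3 stood apart from DMSO replicates 1 and 2 along transcript GC content. Over 9859 genes (genes are no replicates), Spearman's rho between GC content and DMSO replicate 3 minus the other DMSO libraries was -0.85, and rho between GC content and corilagin minus DMSO replicate 3 was -0.004. The main results are therefore also given after removal of each library's GC trend, and against DMSO replicate 3 alone, a single library.

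After corilagin, RELB mRNA was lower and TRAF1 mRNA higher, and the other 8 members did not pass the test. RELB, the activating subunit of the slower route, lay at 0.694 of its DMSO level, and TRAF1, an adaptor of TNF receptors, at 1.375 times its DMSO level. The share of members called was 1 of 10 in each direction, against 11.9% of all tested genes called higher and 13.5% called lower. Unadjusted limma p-values were under 0.05 for 4 members, among them NFKB2 at 0.0448 with an adjusted p of 0.103. The share of all tested genes under 0.05 was not counted, so this count says nothing particular to the members. Corilagin and DMSO values did not overlap for 3 members (NFKB2, RELB and TRAF1), against 48.3% of tested genes. The median log2 difference of the 10 members was -0.16, beside 0.035 for all tested genes. Removal of the GC trend left 2 members higher (TRAF1 and BCL3) and 2 lower (RELB and REL), against 22.3% and 23.8% of 9859 genes, or 46.1% in either direction, and a median of -0.06. The groups then did not overlap for 5 members (REL, RELB, TNFAIP3, TRAF1 and BCL3), against 57.2% of genes.

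**Figure D1:**
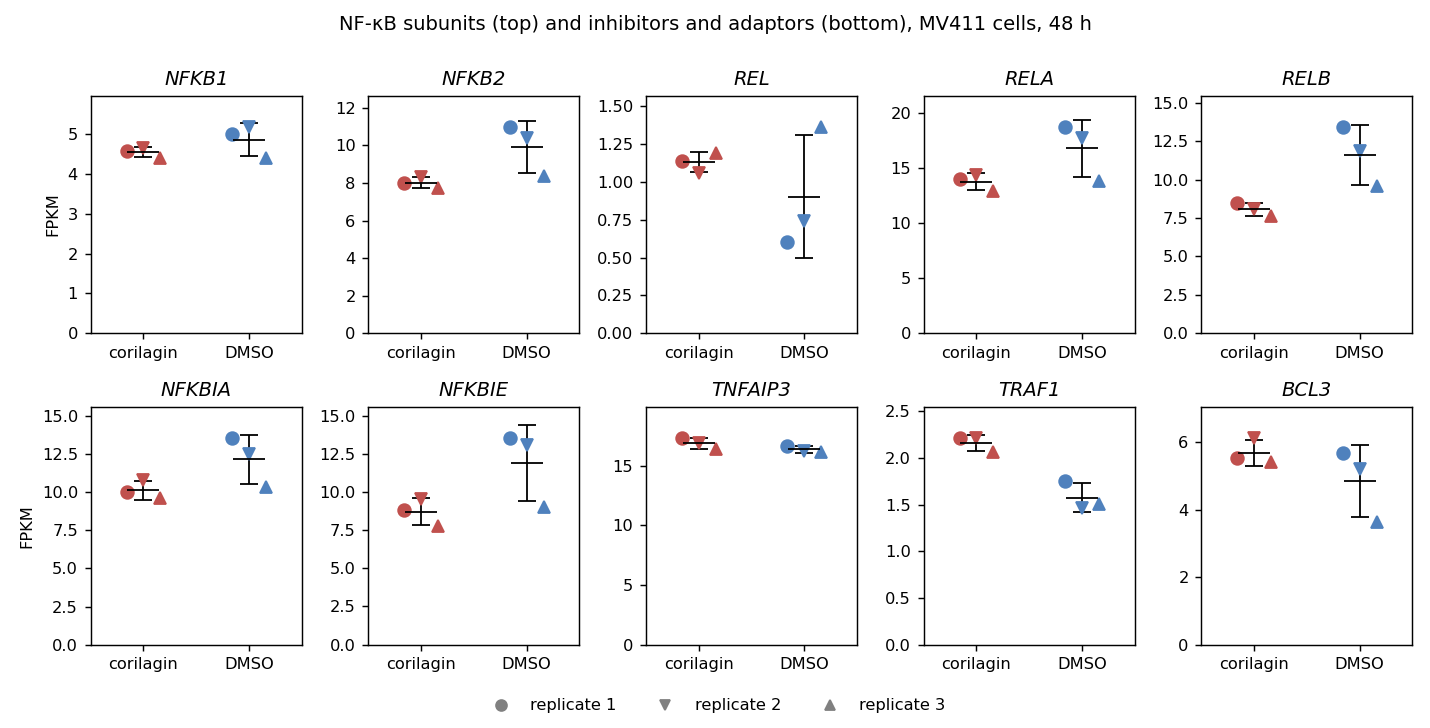
FPKM of each gene (y axes, linear, starting at 0) in the 3 corilagin libraries and the 3 DMSO libraries, with the mean and SD in black; symbols give the replicate number. DMSO replicate 3 (triangle) lies nearest to the corilagin libraries for NFKB2, RELA, RELB, NFKBIA and NFKBIE, and TRAF1 is higher in each corilagin library than in any DMSO library.

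RELB (ENSG00000104856, GRCh38 chromosome 19, 45001430 to 45038198, plus strand) pairs with p52 and is itself an NF-κB target. It was at 8.45, 8.09 and 7.64 FPKM in corilagin replicates 1 to 3, against 13.4, 11.8 and 9.57 FPKM in the DMSO replicates. Every corilagin library was below every DMSO library, and the lowest DMSO value was that of replicate 3. RELB fell to 8.06 ± 0.405 FPKM after corilagin, against 11.6 ± 1.94 FPKM in DMSO (SD, n = 3 each), a log2 difference of -0.47 (SE 0.125, limma adjusted p = 0.0359). The exact 2-sided permutation test gave p = 0.1, the smallest value that 3 against 3 libraries allow. After GC removal the difference was -0.22 (adjusted p = 0.0167), a call lost without corilagin replicate 2 or 3 (adjusted p up to 0.0644), and against DMSO replicate 3 alone it was also -0.22 (adjusted p = 0.0308). As deposited, omitting any library but DMSO replicate 3 ended the limma call (adjusted p from 0.101 to 0.139), as did testing with no filter on low values (adjusted p = 0.0582), and without DMSO replicate 3 the difference was -0.59.

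RELA (ENSG00000173039, chromosome 11, 65653596 to 65663094, minus strand), the main activating subunit of the fast route, was the most abundant subunit transcript per length. Its levels were 14.1, 14.4 and 12.9 FPKM after corilagin and 18.8, 17.8 and 13.9 FPKM in DMSO. The groups overlapped, because DMSO replicate 3 lay among the corilagin values. The log2 difference of -0.26 (95% interval -0.55 to 0.03) did not pass (limma adjusted p = 0.137), and it was -0.07 with the GC trend removed. Against DMSO replicate 3 alone RELA stood at -0.01.

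NFKB1 (ENSG00000109320, chromosome 4, 102501329 to 102617302, plus strand), the source of p50, was at 4.59, 4.65 and 4.41 FPKM after corilagin and at 5.0, 5.19 and 4.40 FPKM in DMSO. The groups overlapped, with DMSO replicate 3 just below the lowest corilagin library. Its log2 difference was -0.08 with a 95% interval from -0.28 to 0.12 (limma adjusted p = 0.492), and the sign turned on rescaling to equal library sums (0.02) and against DMSO replicate 3 alone (0.04). The deposited FPKM imply a length of 15679 bases for NFKB1, while its GENCODE 29 exons cover 6257 bases, so its level relative to other genes depends on the annotation. NFKB2 (ENSG00000077150, chromosome 10, 102394110 to 102402529, plus strand), the source of p52, had 7.99, 8.34 and 7.73 FPKM after corilagin, against 11, 10.4 and 8.37 FPKM in DMSO. The groups of NFKB2 did not overlap, but the gap between 8.34 and 8.37 FPKM was far smaller than the spread within DMSO, and the difference of -0.27 did not pass (limma adjusted p = 0.103). It was -0.06 both with the GC trend removed (adjusted p = 0.336) and against DMSO replicate 3 alone (adjusted p = 0.561).

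REL (ENSG00000162924, chromosome 2, 60881521 to 60931610, plus strand), the c-Rel subunit of lymphoid and myeloid cells, was the lowest subunit. It was at 1.14, 1.06 and 1.19 FPKM after corilagin and at 0.606, 0.739 and 1.37 FPKM in DMSO. DMSO replicate 3 was above all corilagin libraries and the other DMSO libraries were below them. From 204 to 423 fragments per library, the log2 difference was 0.18 (SE 0.143) and did not pass (limma adjusted p = 0.334). Its sign turned with the handling of GC content: after removal of the trend the difference was -0.25 (adjusted p = 0.0274), and against DMSO replicate 3 alone -0.15 (adjusted p = 0.254). The lower call after GC removal ended when any library but DMSO replicate 3 was omitted (adjusted p up to 0.101). REL transcripts have the lowest GC content of the members, 39.5%.

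As shares of the summed FPKM of the 5 subunits, RELB made up 23.3%, 22.1% and 22.6% after corilagin and 27.5%, 25.8% and 25.5% in DMSO. Those of NFKB2 were between 22.0% and 22.8% after corilagin and between 22.3% and 22.6% in DMSO. RELA held 38.1% to 39.4% after corilagin and 36.9% to 38.7% in DMSO, and NFKB1 12.7% to 13.0% after corilagin and 10.2% to 11.7% in DMSO. The share of REL was 2.90% to 3.51% after corilagin and 1.24% to 3.63% in DMSO. The RELB share was lower in every corilagin library than in every DMSO library and the NFKB1 share higher, while those of the other subunits overlapped. For comparison, FPKM did not overlap between groups for 48.3% of tested genes. A share also depends on the levels of the other subunits, and the FPKM of NFKB1 itself overlapped between groups. The shares were not corrected for GC content.

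Among the IκB proteins, NFKBIA (ENSG00000100906, chromosome 14, 35404749 as its 5′ end and 35401511 as its 3′ end, minus strand) encodes IκBα, the inhibitor that NF-κB restores most rapidly. It was at 10.01, 10.8 and 9.61 FPKM after corilagin and at 13.6, 12.5 and 10.4 FPKM in DMSO. DMSO replicate 3 lay between corilagin libraries, so the groups overlapped. The log2 difference was -0.24 (limma adjusted p = 0.14), or -0.09 with the GC trend removed and -0.03 against DMSO replicate 3 alone. NFKBIE (ENSG00000146232, chromosome 6, 44258166 to 44265788, minus strand), which encodes IκBε, was at 8.84, 9.53 and 7.75 FPKM after corilagin and at 13.6, 13.1 and 9.02 FPKM in DMSO. DMSO replicate 3 again lay within the corilagin range, far below the other DMSO libraries. Its difference of -0.39 (95% interval -0.77 to -0.02) had an unadjusted p of 0.041 and did not pass after adjustment (limma adjusted p = 0.0974). After GC removal it was -0.19 (adjusted p = 0.0852), and against DMSO replicate 3 alone -0.05.

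TNFAIP3 (ENSG00000118503, chromosome 6, 137867188 to 137883312, plus strand) encodes A20, the ubiquitin-editing enzyme that shuts off signalling upstream of IκB kinase. It had the smallest difference of the members as deposited, with 17.3, 16.9 and 16.4 FPKM after corilagin and 16.7, 16.2 and 16.2 FPKM in DMSO. The groups overlapped, and the log2 difference of 0.04 had a 95% interval from -0.13 to 0.21 (limma adjusted p = 0.654). After GC removal it was 0.09 (adjusted p = 0.162), and on rescaling by median of ratios it was -0.0029. Its interval did not reach the estimates of RELB (-0.47) or TRAF1 (0.30), and each library held 1838 to 2399 TNFAIP3 fragments.

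TRAF1 (ENSG00000056558, chromosome 9, 120902393 to 120929173, minus strand) is an adaptor that recruits cIAP ubiquitin ligases to TNF receptor complexes. It was at 2.21, 2.22 and 2.06 FPKM after corilagin, against 1.75, 1.46 and 1.51 FPKM in DMSO. All corilagin libraries lay above all DMSO libraries, and DMSO replicate 3 lay between the other DMSO libraries. TRAF1 rose to 2.16 ± 0.0862 FPKM after corilagin, against 1.57 ± 0.156 FPKM in DMSO (SD, n = 3 each), a log2 difference of 0.30 (SE 0.0776, limma adjusted p = 0.0333; exact permutation p = 0.1, the smallest possible). On fragment counts, where low genes are flattened less, limma-voom gave 0.46 (adjusted p = 0.0331) from 120 to 214 fragments per library. In that fit 26.0% of all tested genes were called. After GC removal the difference was 0.44 (adjusted p = 0.00281), a call that held whichever library was left out (adjusted p up to 0.0164), and against DMSO replicate 3 alone it was 0.33 (adjusted p = 0.0143). As deposited, the call ended on omitting any library but DMSO replicate 3 (adjusted p from 0.0522 to 0.13), with no filter on low values (adjusted p = 0.0565), with the replicate number as a block (adjusted p = 0.0511) and with quantile normalization (adjusted p = 0.146).

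BCL3 (ENSG00000069399, chromosome 19, 44747705 to 44760044, plus strand) is a nuclear IκB-like protein that binds p50 and p52 dimers on DNA. It was at 5.54, 6.13 and 5.40 FPKM after corilagin and at 5.69, 5.22 and 3.64 FPKM in DMSO. The groups overlapped as deposited, since DMSO replicate 1 lay within the corilagin range and replicate 3 well below it. The difference of 0.21 (SE 0.145) did not pass (limma adjusted p = 0.28). After GC removal it was 0.47 (SE 0.0701, adjusted p = 0.00129), with no overlap between groups, and that call held whichever library was left out (adjusted p from 0.000179 to 0.00872). Against DMSO replicate 3 alone the difference was 0.53 (adjusted p = 0.000683), and without that library it was 0.05 (adjusted p = 0.488).

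**Figure D2:**
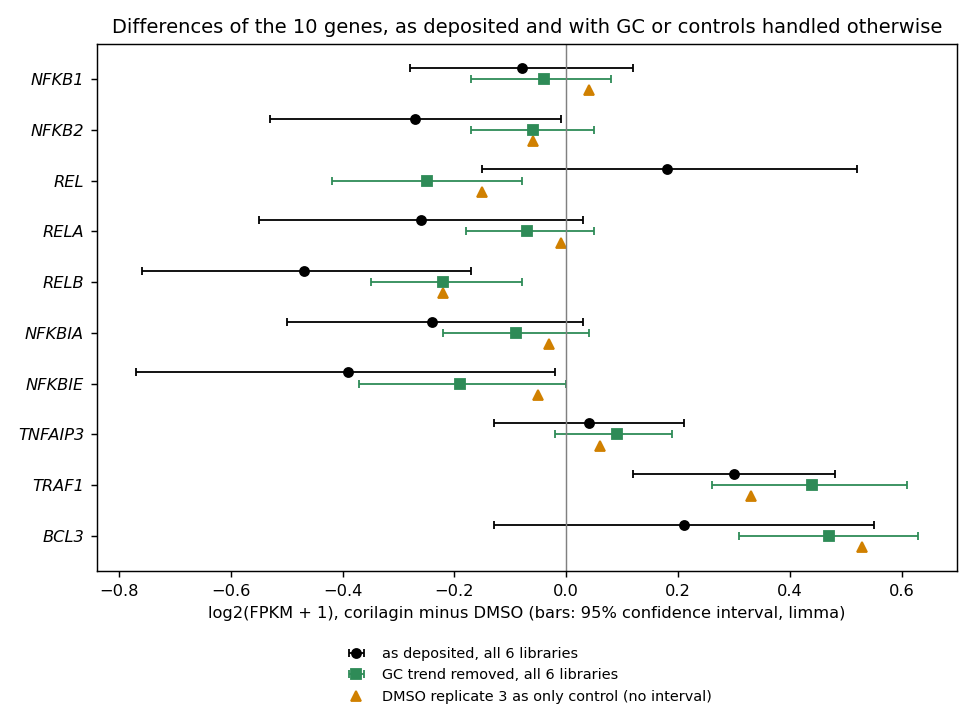
Difference in log2(FPKM + 1), corilagin minus DMSO (x axis), for each gene, from all 6 libraries as deposited (circles), after removal of each library's GC trend (squares) and with DMSO replicate 3 as the only control (triangles); bars are limma's 95% confidence intervals. REL lies on opposite sides of 0 before and after GC removal, RELB below 0 and TRAF1 and BCL3 above 0 under all 3.

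The members differed in the GC content of their transcripts, which ran from 39.5% in REL to 65.7% in BCL3, against a median of 49.2% over tested genes. Of these, 6, namely NFKB2, RELA, RELB, NFKBIA, NFKBIE and BCL3, were above 55.2%, the value of TRAF1. In the same 6 genes DMSO replicate 3 minus the mean of the other DMSO libraries was -0.30 to -0.52 on the log2 scale, whereas it was 0.50 in REL. In TRAF1 that difference was only -0.05, beside a median of -0.25 for tested genes of the same GC content. Over the 10 members, whose values share those 3 libraries, Spearman's rho between GC content and that difference was -0.83, and for corilagin minus DMSO replicate 3 it was -0.055. The fit without DMSO replicate 3 called 5 members lower (NFKB2, RELA, RELB, NFKBIA and NFKBIE) and 2 higher (REL and TRAF1), against 36.5% of all tested genes called lower and 40.8% higher, 77.3% in all. With DMSO replicate 3 as the only control, RELB was lower and TRAF1 and BCL3 were higher, where 18.6% of tested genes were called lower and 19.4% higher, 38.0% in all, and a single library stands for the control group, assumed to vary like the others.

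**Figure D3:**
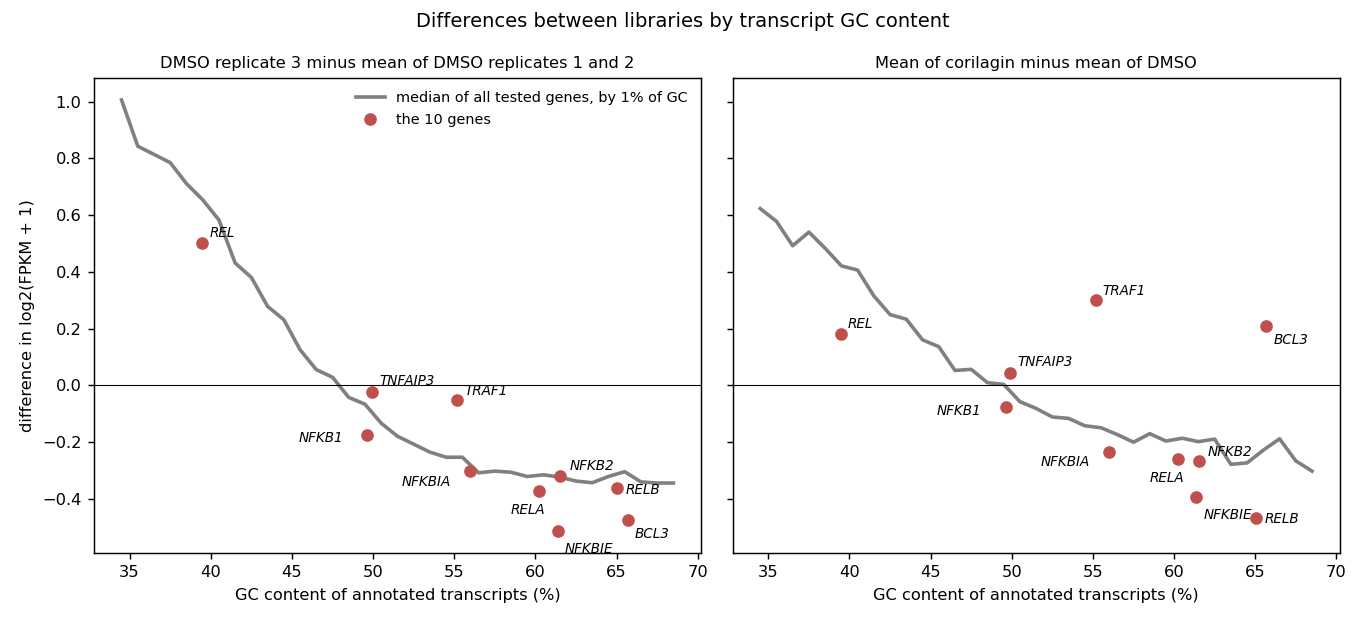
Difference in log2(FPKM + 1) against the GC content of annotated transcripts (%), for DMSO replicate 3 minus the mean of DMSO replicates 1 and 2 (left) and for corilagin minus DMSO (right); the line is the median of tested genes per 1% of GC, and points are the 10 genes. On the left REL is at 0.50 and NFKBIE at -0.52, both below the line, and on the right TRAF1 (0.30) and BCL3 (0.21) lie above the line and RELB (-0.47) below it.

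Ratios of a pair of genes within a library do not depend on the library's scaling, and for genes of near-equal GC content they hold little of the GC trend. The following 3 pairs of members were picked with their values in view and carry no test. Of all 45 pairs of members, 25 had ratios that did not overlap between groups, among them 13 of the 17 pairs with BCL3 or TRAF1. Pairs of other genes were not counted, so these counts have no share to stand beside. FPKM of single genes already did not overlap for 48.3% of tested genes. BCL3 and TRAF1 were set apart with their values in view, and pairs that share a gene are not independent. BCL3 over RELB, at 65.7% and 65.0% GC, was 0.656, 0.758 and 0.707 after corilagin, against 0.423, 0.441 and 0.380 in DMSO. TRAF1 over NFKBIA, at 55.2% and 56.0% GC, was 0.221, 0.205 and 0.215 after corilagin, against 0.129, 0.116 and 0.145 in DMSO. In both pairs DMSO replicate 3 stood with the other DMSO libraries and not with corilagin. RELB over NFKB2, the partners of the slower route, are less alike in GC content, at 65.0% and 61.5%. Their ratio was 1.06, 0.969 and 0.988 after corilagin and 1.22, 1.14 and 1.14 in DMSO. Summed over the 5 inhibitors and adaptors and divided by the sum of the 5 subunits, FPKM gave 1.21, 1.25 and 1.22 after corilagin and 1.05, 1.06 and 1.08 in DMSO. These sums mix genes of unlike GC content.

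**Figure D4:**
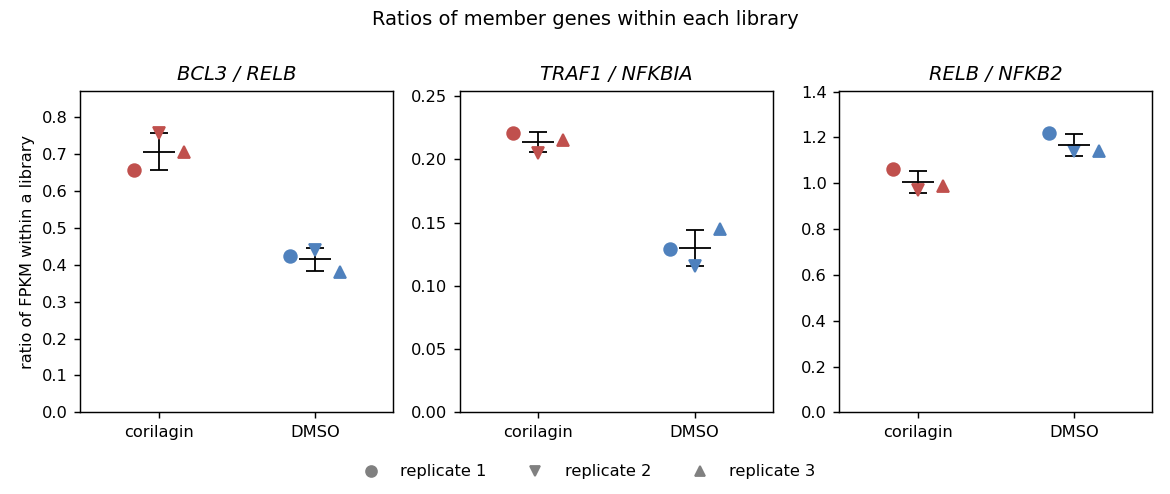
Ratio of FPKM of a pair of genes within each library (y axes, linear, starting at 0) in corilagin and DMSO, with the mean and SD in black and symbols for the replicate number. BCL3 over RELB is 0.656 to 0.758 after corilagin and 0.380 to 0.441 in DMSO, and TRAF1 over NFKBIA is 0.205 to 0.221 after corilagin and 0.116 to 0.145 in DMSO.

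The counts that follow for the other genes of the pathway stand beside 11.9% of all tested genes called higher and 13.5% called lower as deposited, and 22.3% and 23.8% after GC removal. Of 11 listed and tested genes of IκB kinase and the kinases that activate it, 1 rose, 1 fell and 9 did not pass, against 25.4% of all genes called in either direction, with a median of 0.33 before and 0.07 after GC removal. IKBKE, a kinase related to IκB kinase, fell to 5.93 ± 0.138 FPKM after corilagin, against 9.21 ± 1.13 FPKM in DMSO (log2 difference -0.55, limma adjusted p = 0.0136; -0.37 with the GC trend removed). MAP3K8, the kinase TPL2 that is held by p105, rose to 3.06 ± 0.247 FPKM, against 2.17 ± 0.0614 FPKM in DMSO (adjusted p = 0.0226). Of 13 further IκB proteins and partners of A20, 12 were tested, of which 4 rose and none fell, against 11.9% of all genes called higher, and with the GC trend removed 3 rose, a share near the 22.3% of all genes. The gene NFKBIZ, which encodes the nuclear protein IκBζ, was at 1.30, 1.46 and 1.51 FPKM after corilagin, against 0.845, 0.532 and 0.915 FPKM in DMSO (log2 difference 0.46, adjusted p = 0.0211; 0.47 with the GC trend removed). CYLD, a deubiquitinase that restrains the pathway, rose 1.5-fold as deposited, a log2 difference of 0.54 that was 0.17 after GC removal (limma adjusted p = 0.0458). For ITCH, a ubiquitin ligase that works with A20, the difference was 0.50 as deposited and 0.15 after GC removal, where its call was lost (limma adjusted p = 0.171). The ITCH difference against DMSO replicate 3 alone was 0.28.

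Of 33 receptors and adaptors 23 were tested, of which 5 rose and 1 fell, against 11.9% and 13.5% of all genes, or 9 and 3 with the GC trend removed, against 22.3% and 23.8%. The Toll-like receptor genes TLR1 and TLR2 rose 1.78-fold and 1.53-fold, and MALT1, a protease of the CARD-BCL10 complex, 1.76-fold. Against DMSO replicate 3 alone these rises were 1.21-fold, 1.13-fold and 1.19-fold, and none of the 3 passed (limma adjusted p = 0.105, 0.0564 and 0.133). After GC removal all 3 passed, with log2 differences of 0.21 for TLR1 (adjusted p = 0.0278), 0.38 for TLR2 (adjusted p = 0.00972) and 0.23 for MALT1 (adjusted p = 0.0215). IRAK1, the kinase below Toll-like and IL-1 receptors, fell to 52.1 ± 2.22 FPKM after corilagin, against 78.4 ± 14.1 FPKM in DMSO (log2 difference -0.56, adjusted p = 0.0284). The IRAK1 difference after GC removal was -0.33 (adjusted p = 0.0021).

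Of 36 genes that NF-κB is known to induce 23 were tested, of which 8 rose, 2 fell and 13 did not pass, with a median of 0.27, against 11.9% of all genes called higher and 13.5% lower. After GC removal 9 of 22 rose and 6 fell, with a median of 0.06, against 22.3% and 23.8% of all genes, so the share that fell was near that of all genes. The targets CXCL1, CXCL3 and VCAM1 were listed at 0 in all libraries. TNF, the cytokine that both activates NF-κB and is its target, had the largest fall of the listed genes. It was at 52.3, 54.9 and 59.1 FPKM after corilagin, against 106, 122 and 110 FPKM in DMSO. All DMSO libraries lay together, replicate 3 included, far above every corilagin library. The fall to 0.492 of the DMSO level (log2 difference -1.01, limma adjusted p = 0.00189) was -0.89 with the GC trend removed and -0.98 against DMSO replicate 3 alone, and was called whichever library was left out. GADD45B, a stress-response gene, fell to 0.814 of its DMSO level, and lost its call after GC removal (limma adjusted p = 0.356). Its log2 difference was -0.27 as deposited, -0.09 after GC removal and -0.24 against DMSO replicate 3 alone.

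As deposited, the largest rises among the targets were those of EBI3 (0.72), BCL2A1 (0.69) and IL1B (0.66), with CCL5 and KLF6 close behind. CCL5 and KLF6, named with their values in view, had differences of 0.77 and 0.66 after GC removal, above those of IL1B and BCL2A1. EBI3, a subunit of the cytokines IL-27 and IL-35, averaged 2.75 ± 0.131 FPKM in corilagin libraries and 1.29 ± 0.328 FPKM in DMSO libraries (log2 difference 0.72, limma adjusted p = 0.00809), and its difference was 0.93 with the GC trend removed. IL1B was at 6.23, 7.61 and 8.57 FPKM after corilagin, against 4.50, 4.14 and 4.37 FPKM in DMSO (log2 difference 0.66, adjusted p = 0.0121). Its difference of 0.64 with the GC trend removed was close to that as deposited. BCL2A1, a survival protein of the BCL2 family, was at 1.72, 1.85 and 2.31 FPKM after corilagin, against 1.07, 0.801 and 0.622 FPKM in DMSO, and its difference of 0.69 became 0.30 with the GC trend removed (adjusted p = 0.276). As deposited, the calls of EBI3 and BCL2A1 were lost without corilagin replicate 2 or 3, and that of IL1B also without DMSO replicate 2 (adjusted p up to 0.0676). The calls of MAP3K8, CYLD, ITCH, TLR1, TLR2, MALT1, IRAK1 and GADD45B held in 1 of the 6 fits that leave out a library, and those of IKBKE and NFKBIZ in 2.

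**Figure D5:**
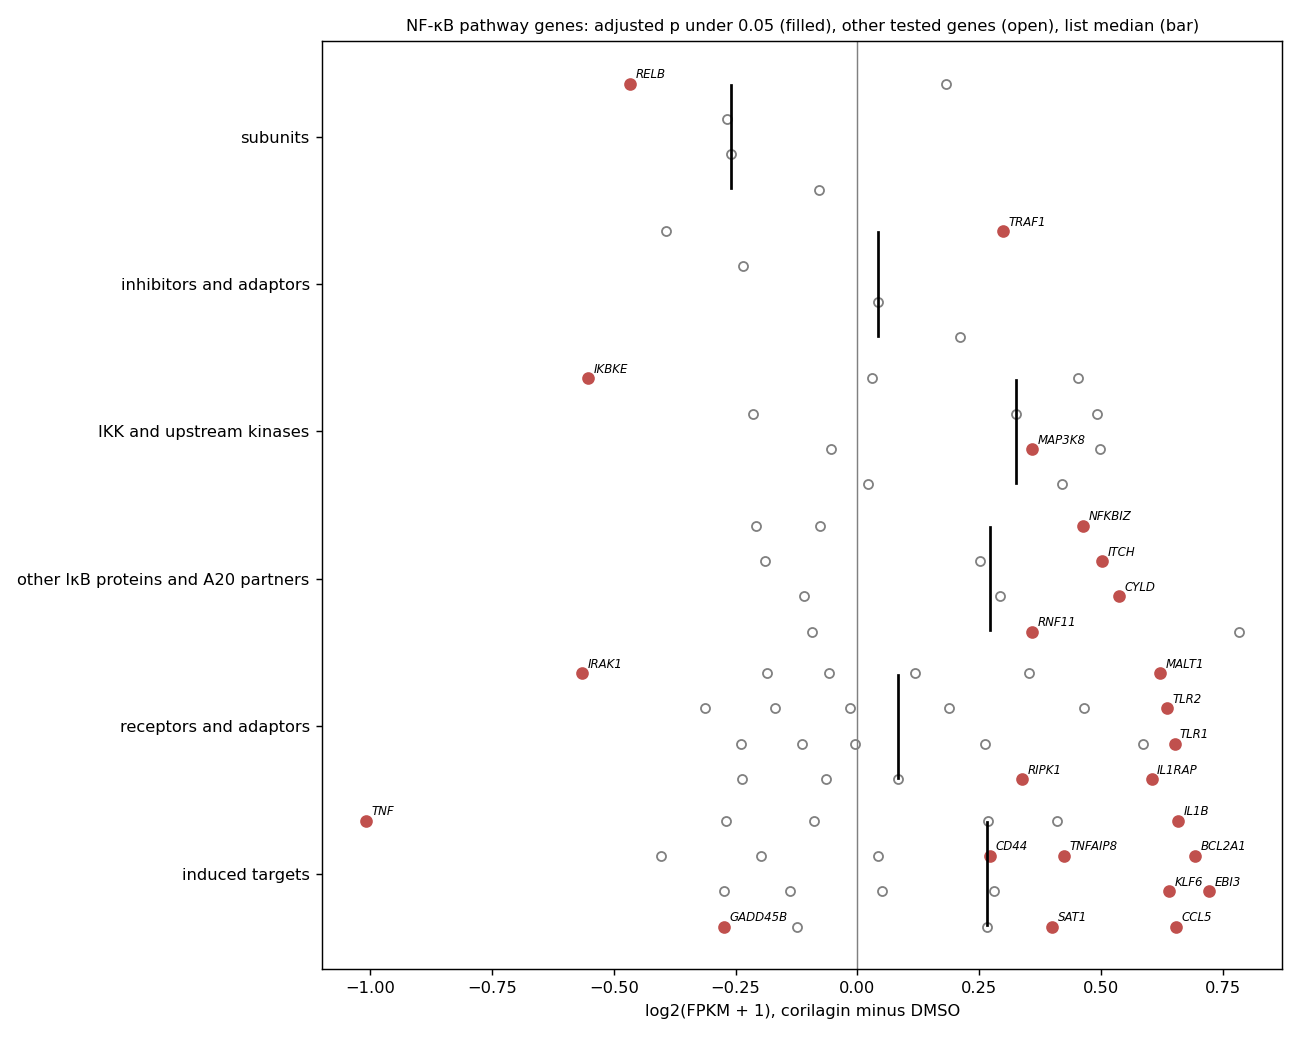
Difference in log2(FPKM + 1), corilagin minus DMSO (x axis), of the tested genes of each NF-κB pathway list as deposited; filled points passed the limma test, open points did not, and bars are list medians. RELB (-0.47) is the filled subunit and TRAF1 (0.30) the filled adaptor, and TNF (-1.01) lies farthest from 0.

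The genes whose pattern over the 6 libraries was most like that of RELB, the member with the largest called difference, were LYPLA2, WIZ, FOXRED1 and APH1A, with Pearson correlations of 0.9964 to 0.9986 of log2(FPKM + 1) over 6 libraries. Among the 6569 genes searched, 1000 had a correlation over 0.95 with RELB. LYPLA2 was at 27.2, 26.0 and 25.2 FPKM after corilagin and at 40.7, 36.1 and 30.8 FPKM in DMSO. As in RELB, the DMSO library nearest to the corilagin values was replicate 3, and its transcripts are rich in GC (61.8%).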

How the data were processed

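Poly(A) RNA of MV411 cells was sequenced as paired reads, per the labels' protocols, which do not state that strand was kept. The tools, per the submitters' processing notes, were fastp 0.22.0, HISAT2 2.1.0, HTSeq 0.9.1 and DESeq 1.38.3, on build GRCh38; their settings are not given in the sources used here. The values that the authors deposited are FPKM, in a single table of 20036 Ensembl genes and 6 libraries. Because FPKM is relative to the library total, abundant genes can shift the rest. Whole fragments were recovered from the FPKM steps (100.0% of 15921 genes within 0.005 of a whole number, a share that follows from the method).

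The members and gene lists were chosen with earlier results of these data known. Groups were compared with limma 3.58.1 (R 4.3.3; trended eBayes, 2-sided) on log2(FPKM + 1) of the 6 libraries, for 9868 genes whose mean reached 1 FPKM, and differences on that scale understate those of low genes. Limma was also run on simulated data, as a check of the procedure only, which says nothing on the calls given here. Symbols were matched for 20011 identifiers. Each library's GC trend was removed with a natural spline of 5 degrees of freedom on the GC content of GENCODE 29 transcripts, which also takes out any true difference that follows GC content. Limma-voom was run on the recovered fragments. Named genes beyond the members were up to 3 rises and 3 falls of each pathway list past the threshold, and the 4 genes most correlated with the member of largest called difference. Counting error of a member's fragments was 2.04 to 9.13% per library, for counting alone. Exons of REL, RELA, TNFAIP3 and BCL3 overlap non-coding genes not in the table, whose reads could be shared. Alternatives were pseudocounts, filters, scalings, a replicate block and leaving out libraries.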

Additional observations from a re-analysis of the deposited data

How the results depend on the processing

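Across 1171 genes called higher and 1331 lower, leaving out a library gave 131 to 4030 higher and 176 to 3597 lower, as deposited. With GC removal too, fits added after seeing the data, the highest counts were 3090 and 3277, both without DMSO replicate 3. GC removal gave 2201 higher and 2347 lower, its fit with a replicate block 2154 and 2267, DMSO replicate 3 as the only control 1916 higher, and the filter at 5 FPKM 713 higher. Equal library sums gave 1620 higher and 1059 lower, and median-of-ratios scaling 957 and 1518. Among the members, where 1 was higher and 1 lower, leaving out a library, with or without GC removal, gave 0 to 3 higher and 0 to 5 lower. The fit without a filter called 0 and 0 members, where 934 of all genes were called higher and 1026 lower. The filter at 5 FPKM, which left out TRAF1, called 0 members higher. Quantile normalization also called 0 members higher, where 1028 of all genes were called higher and 1498 lower. GC removal called 2 and 2, and its fit with a replicate block also 2 and 2, where NFKBIE was called and REL was not (adjusted p of 0.0505), and DMSO replicate 3 as the only control 2 higher. With the replicate block alone 0 members were higher and 2 lower (RELB, and NFKBIE at an adjusted p of 0.0427). In that fit 1547 of all genes were called higher and 1330 lower. Deviations of same-numbered libraries had correlations of 0.28, 0.079 and 0.339, not all over 0.1, and libraries of other numbers -0.323 to 0.279. These values cannot decide on pairing, because deviations within a group sum to 0 and DMSO replicate 3 stood apart. The libraries were not treated as paired, and a shared origin was not tested. Signs turned for NFKB1 (0.02 with equal sums and 0.04 against DMSO replicate 3 alone), for TNFAIP3 (-0.0029 with median-of-ratios scaling) and for REL (-0.15 against DMSO replicate 3 alone, -0.25 with the GC trend removed with or without a block, and -0.3, -0.26, -0.25, -0.23, -0.23 and -0.21 when a library was also left out). Fragments per library limit REL, TRAF1 and BCL3 most. The cause of these shifts was not tested.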
